A study of Mus musculus with 6 samples.

Results

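Collagens are the triple-helical proteins of the extracellular matrix. Their 44 genes, among the 48321 gene names measured by RNA sequencing of isolated mouse islets, were taken as every name of the form Col, a number, A and a number. That form leaves out the lipid-transfer gene Col4a3bp, which is no collagen. By type, 11 genes encode fibrillar chains (types I, II, III, V, XI, XXIV and XXVII), 8 encode chains of the basement membrane (types IV, XV and XVIII), 6 encode type VI chains and 19 encode the other types. One group of 3 islet samples came from C57BL6 mice on a high-fat diet, in which fat supplied 60 percent of the calories, begun at the age of 3 months and kept up for 4 months. The other group of 3 came from C57BL6 mice on normal chow, whose age is not stated in the sources used here. Both groups are labelled wild type. The labels do not say whether a sample was 1 animal or a pool, so the spread behind each p-value may be technical. Levels are in CPM, a gene's reads scaled to a library total, and their sum over all gene names differed between libraries.

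For 48321 of 48321 gene names, the value of chow replicate 2 was the average of the other chow columns, so the comparisons rest on 3 high-fat and 2 chow libraries, with implied totals of 18.8 to 35.1 M reads. The islet hormones and beta-cell genes summed to 106540, 114940 and 108340 CPM in the high-fat libraries, against 75024 and 94375 CPM in the chow libraries. A set of 6 structured or repeat-like non-coding RNAs (Rn7sk, Rpph1, Rmrp, Rn7s1, Rn7s2 and Gm26917) summed to 66680, 61971 and 61605 CPM in high-fat libraries, against 89.9 and 107 CPM in chow libraries. Whatever separates the libraries in these RNAs therefore cannot be told apart from diet for any gene below. The labels name no library type or batch. Sample titles begin with BS for all chow samples and with RA for all high-fat samples, and the meaning of these letters is not stated. Acinar markers (digestive enzymes of the exocrine pancreas) summed to 83385, 9775 and 30095 CPM in high-fat replicates 1, 2 and 3, against 145930 and 46206 CPM in chow replicates 1 and 3. Every collagen difference below stands beside these shifts, and their part in it was not tested except where a fit is named.

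A collagen molecule is a trimer of chains wound around each other, which is possible because glycine recurs at a fixed interval along each chain, in every Gly-X-Y triplet, and is the only residue small enough for the centre of the helix. Fibrillar collagens assemble into the cables of connective tissue and are made mainly by fibroblasts and stellate cells. Type IV collagen forms the sheet-like network of basement membranes. In mouse islets the beta-cells sit against the basement membrane of the capillaries, and islet endothelium is known as a main source of it. Type VI forms beaded filaments between the cables and the basement membrane.

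The classes differ in how long the glycine repeat runs unbroken, which the coding sequences of GENCODE M21 (mouse GRCm38) show. The first 54 bases of the longest unbroken run are shown for the main fibrillar chains and for Col6a6, with Col4a1 at a break between 2 runs. Capitals mark codons that begin with GG, which encode glycine.
Col1a1: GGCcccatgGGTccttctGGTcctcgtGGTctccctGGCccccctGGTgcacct
Col1a2: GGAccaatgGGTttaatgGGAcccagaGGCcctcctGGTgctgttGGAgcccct
Col3a1: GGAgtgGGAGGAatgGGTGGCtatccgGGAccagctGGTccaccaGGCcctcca
Col6a6: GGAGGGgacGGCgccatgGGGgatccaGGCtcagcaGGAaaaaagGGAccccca
Col4a1: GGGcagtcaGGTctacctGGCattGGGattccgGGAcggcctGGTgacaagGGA
In Col1a1 such triplets followed each other 338 times without a break, in Col1a2 339 times and in Col3a1 344 times. In Col4a1 the longest run was 40 triplets, and the coding sequence held 22 separate runs of at least 5 triplets. At the break shown, 2 codons interrupt the repeat between runs of 37 and 38 triplets. In Col6a6 the longest run was 42 triplets and all runs together made up 14.2% of the coding sequence, against 73.3% in Col1a1 and 78.4% in Col4a1.

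Of the 44 collagen genes, 37 reached a mean of 0.5 CPM and entered the test of all 16939 such genes. At an adjusted p below 0.05, 13 of the 37 were lower and 3 were higher on the high-fat diet (limma on log2(CPM + 1), Benjamini-Hochberg over all genes). Among all genes tested, 8.78% were lower and 14.9% were higher. The median log2 fold change of the 37 chains was -0.47, beside 0.05 over all genes, and 32 of the 37 had a negative value. The 13 lower chains were 5 fibrillar, 1 basement membrane, 2 type VI and 5 of the other types, and the 3 higher ones were all of the other types. The diets did not overlap for 23 of the 37 on the lower side and for 4 on the higher side, beside 22.5% and 32.8% of all genes. At an unadjusted p below 0.05, 18 chains were lower and 3 higher in limma, beside 38.8% of all genes in either direction. Col9a1 passed the filter on low values only through the high-fat libraries, where it is high, so its call lends nothing to the count of higher chains. Col4a6 and Col9a3 passed it only through the chow libraries. Without chow replicate 1, the median log2 fold change of the chains was -0.46, beside 0.03 over all genes. Without chow replicate 3 it was -0.60, beside 0.08. Calls that ended without a chow library are given below by chain. Without high-fat replicate 1, 4 chains were lower and 2 higher, beside 787 and 1468 of the 16939 genes. Without high-fat replicate 2 the counts were 2 and 1, beside 690 and 1187. Without high-fat replicate 3 they were 9 and 2, beside 744 and 1232.

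**Figure D1:**
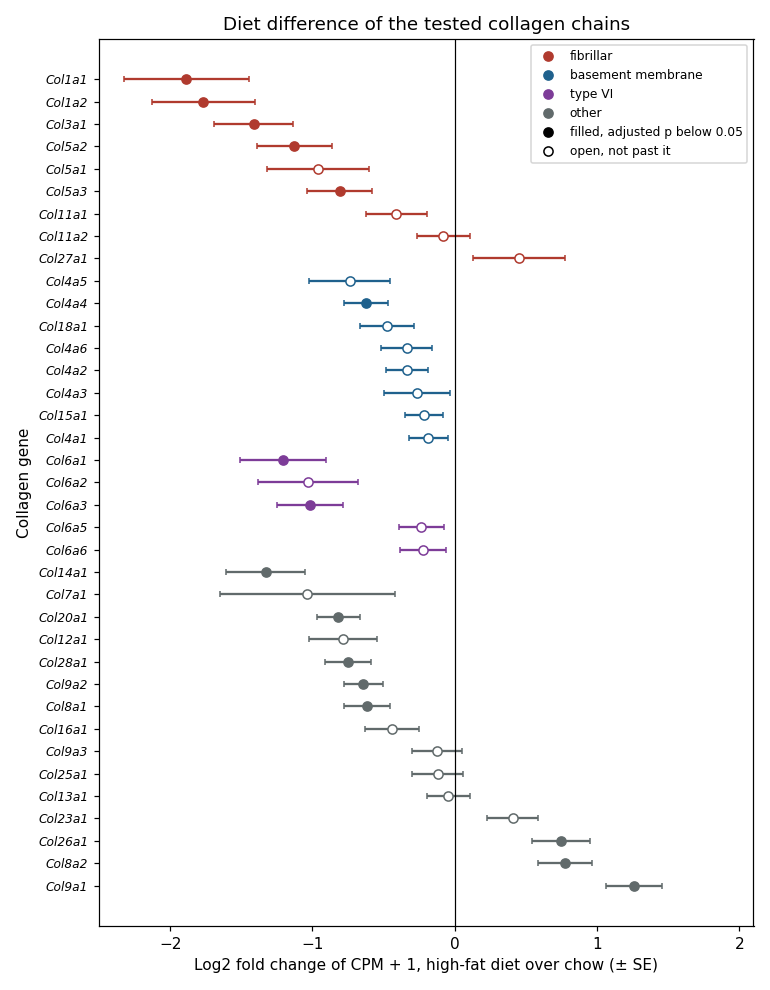
Log2 fold change of CPM + 1 (high-fat diet over chow, with SE) of the 37 tested collagen genes, coloured by class. Filled points passed an adjusted p of 0.05 in limma; the lowest values are those of Col1a1 (-1.89) and Col1a2 (-1.77), and Col9a1 (1.26) is the highest.

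Summed over each class, collagen levels were lower on the high-fat diet in all 4 classes. The 11 fibrillar genes summed to 34.6, 47.9 and 69.3 CPM in high-fat replicates 1, 2 and 3, against 157 and 94.3 CPM in chow replicates 1 and 3. The 8 basement membrane genes summed to 148, 182 and 189 CPM in the high-fat libraries, against 195 and 226 CPM in the chow libraries. The libraries of the diets did not overlap in either sum, and the fibrillar means stood at 50.6 ± 17.5 and 126 ± 44.2 CPM (SD, n = 3 high-fat and 2 chow). Type VI summed to 90.5, 104 and 139 CPM in the high-fat libraries, against 148 and 143 CPM in the chow libraries. Without Col6a6, which made up 86.7% ± 1.9 of that class in high-fat libraries and 76.2% ± 8.02 in chow libraries, type VI summed to 10.2, 14.4 and 20.8 CPM in high-fat libraries, against 43.7 and 25.9 CPM in chow libraries, a sum chosen after seeing the data. The other types summed to 42.9, 38 and 40.9 CPM in the high-fat libraries, against 67.3 and 53.3 CPM in the chow libraries. The ratio of fibrillar to basement membrane collagen, which does not depend on how a library is scaled, was 0.234, 0.263 and 0.368 in high-fat libraries, against 0.804 and 0.418 in chow libraries. High-fat replicate 3 lay closest to chow in this ratio. With 3 against 2 libraries an exact two-sided permutation test cannot go below p = 0.2, so the sums and the ratio are a description.

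**Figure D2:**
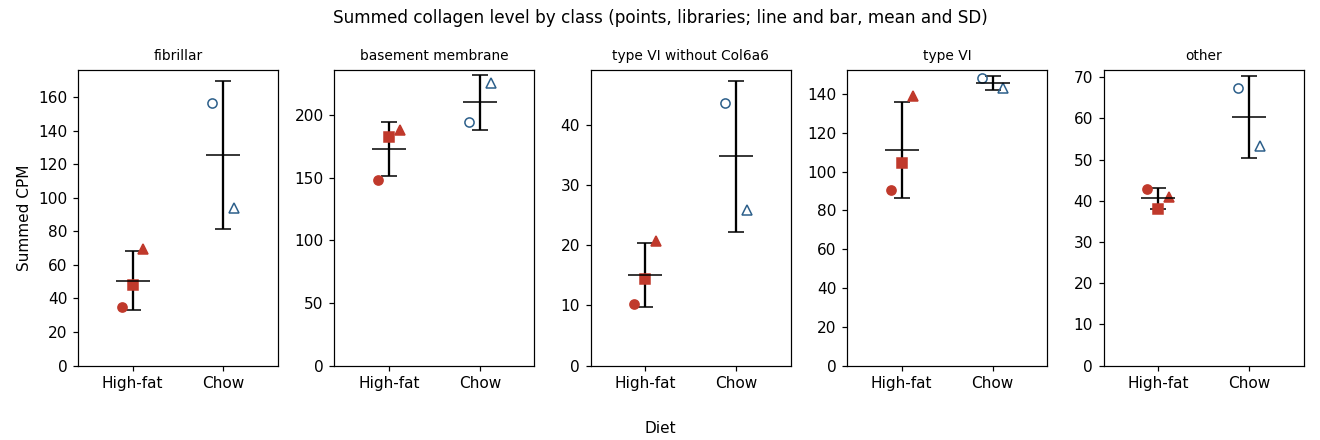
Summed CPM of each collagen class in each library (filled, high-fat replicates 1, 2 and 3 as circle, square and triangle; open, chow replicates 1 and 3 as circle and triangle), with mean and SD; type VI is shown without and with Col6a6. In all panels the chow libraries lie above the high-fat libraries, and for the fibrillar class 94.3 CPM is the lower chow value and 69.3 CPM the highest high-fat value.

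Per kilobase of transcript, 3 chains led in both diets. Col4a1 averaged 13.4 CPM per kb in high-fat libraries and 15.3 in chow libraries. Col6a6 averaged 10.9 CPM per kb in high-fat libraries and 12.6 in chow libraries, and Col4a2 averaged 8.12 in high-fat libraries and 10.2 in chow libraries. Together these 3 took 63.2% ± 0.836 of the summed collagen CPM in high-fat libraries and 51.6% ± 9.54 in chow libraries. Below them the order differed between the diets. Col1a2, at 1.94 CPM per kb in high-fat libraries and 7 in chow libraries, ranked 7 of 44 in the high-fat libraries and 4 in the chow libraries. Col15a1 ranked 4 in the high-fat libraries and 6 in the chow libraries, with 3.62 CPM per kb in high-fat libraries and 4.2 in chow libraries.

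**Figure D3:**
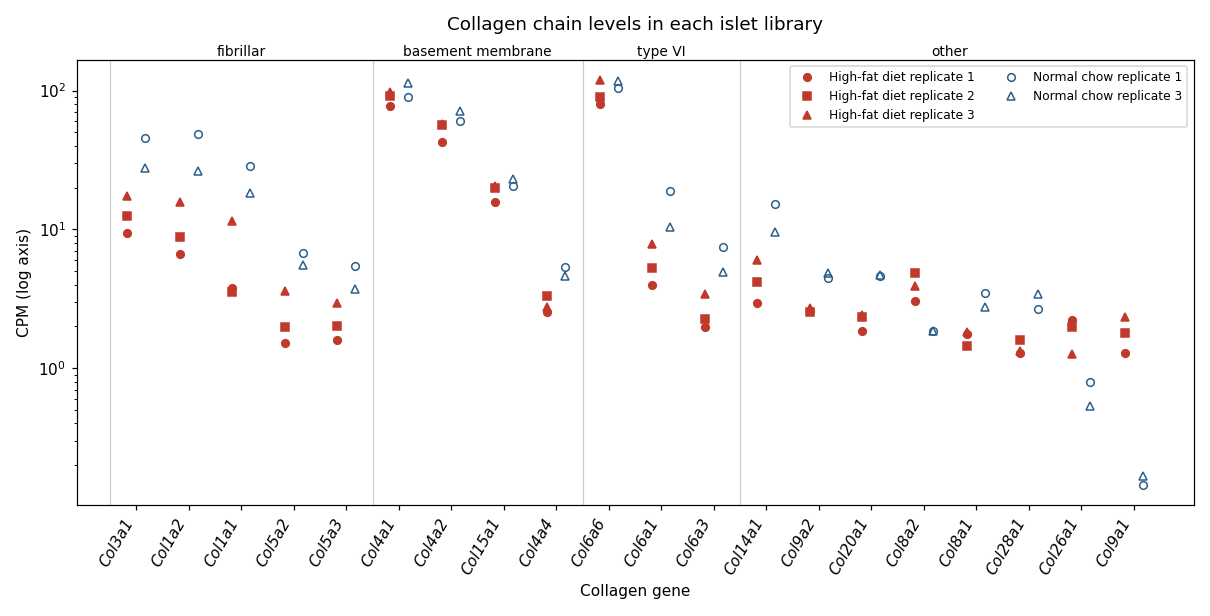
CPM on a log axis in each of the 5 libraries for the collagen genes that averaged 10 CPM or more or had an adjusted p below 0.05, grouped by class. Col4a1, Col4a2 and Col6a6 lie highest in both diets; Col1a1, Col1a2 and Col3a1 show the chow libraries above all high-fat libraries, and Col9a1 the reverse.

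The main fibrillar chains were lower on the high-fat diet, and their libraries did not overlap. Col1a1, which provides the more abundant chain of type I collagen, had 3.77, 3.57 and 11.5 CPM in high-fat replicates 1, 2 and 3, against 28.6 and 18.4 CPM in chow replicates 1 and 3. Its partner Col1a2 had 6.67, 8.77 and 15.7 CPM in high-fat libraries, against 48.7 and 26.1 CPM in chow libraries. Col3a1, the single chain of type III collagen of blood vessels and soft connective tissue, had 9.38, 12.4 and 17.5 CPM in high-fat libraries, against 45.3 and 27.7 CPM in chow libraries. High-fat replicate 3 was the highest of its diet in all 3 chains, and chow replicate 1 the higher of its own. The log2 fold changes were -1.89 ± 0.44 for Col1a1 (SE, adjusted p = 0.0242), -1.77 ± 0.36 for Col1a2 (0.0163) and -1.41 ± 0.28 for Col3a1 (0.0141), from limma. The ratio of Col1a1 to Col1a2 per kilobase was 0.511 ± 0.145 in high-fat libraries and 0.581 ± 0.0744 in chow libraries (SD, n = 3 and 2), a difference within the spread of the high-fat libraries.

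Upstream sequence of a pair of these genes is shown because the genes fell together. Shown are the 250 bases before the start of Col1a2 (chr6:4505368-4505617, plus strand) and of Col3a1 (chr1:45311288-45311537, plus strand), from RefSeq on GRCm38.p6. Capitals mark CCAAT, a box read by the factor NF-Y, and TATAAA, on either strand.
Col1a2: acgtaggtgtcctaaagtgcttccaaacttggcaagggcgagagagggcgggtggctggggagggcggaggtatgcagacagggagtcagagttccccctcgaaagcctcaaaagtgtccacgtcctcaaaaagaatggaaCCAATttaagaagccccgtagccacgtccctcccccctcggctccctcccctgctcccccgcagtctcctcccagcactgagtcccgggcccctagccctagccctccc
Col3a1: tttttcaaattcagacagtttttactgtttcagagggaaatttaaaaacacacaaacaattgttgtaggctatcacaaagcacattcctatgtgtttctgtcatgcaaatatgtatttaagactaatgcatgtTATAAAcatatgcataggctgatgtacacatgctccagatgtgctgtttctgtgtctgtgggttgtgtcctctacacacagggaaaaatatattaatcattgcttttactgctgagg
The Col1a2 window held 1 CCAAT and no TATAAA, and the Col3a1 window 1 TATAAA and no CCAAT. The G and C content was 62% in the Col1a2 window and 35.2% in the Col3a1 window. CCAAT, with its reverse complement ATTGG, was in 33.8% of all 32851 upstream windows and in 13 of the 38 windows of collagen genes. TATAAA or TTTATA was in 12.4% of all windows and in 5 of the 38, and the GC box GGGCGG or CCGCCC in 32.7% of all and in 22 of the 38. The table held windows for 35 of the 44 genes.

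Of the 3 type V chains, which join type I fibrils and limit their width, 2 were lower. Col5a2 had 1.53, 1.97 and 3.62 CPM in high-fat replicates 1, 2 and 3, against 6.76 and 5.56 CPM in chow replicates 1 and 3, a log2 fold change of -1.13 ± 0.26 (SE, limma adjusted p = 0.0246). Col5a3 had 1.6, 2.01 and 2.97 CPM in high-fat libraries, against 5.43 and 3.73 CPM in chow libraries, a change of -0.81 ± 0.23 (0.0441). The diets did not overlap in either chain. Col5a1 did not pass (-0.96 ± 0.36, limma adjusted p = 0.0949). It had 1.36, 1.29 and 3.28 CPM in high-fat libraries, against 6.56 and 3.05 CPM in chow libraries, and high-fat replicate 3 lay above chow replicate 3. Among the chains known mainly from cartilage, Col11a1 (-0.41 ± 0.21) and Col11a2 (-0.08 ± 0.19) did not pass either, with limma adjusted p-values of 0.203 and 0.783. Col27a1 had 6.21, 12.6 and 9.76 CPM in high-fat libraries, against 9.01 and 4.52 CPM in chow libraries, with overlap (0.45 ± 0.33, limma adjusted p = 0.347). Col2a1 and Col24a1 were too low to be tested.

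The fibrillar calls depended on single libraries. Without chow replicate 1, the calls of Col1a1 (limma adjusted p = 0.121), Col1a2 (0.082), Col3a1 (0.0681), Col5a2 (0.115) and Col5a3 (0.214) ended. Without high-fat replicate 2 the same 5 ended (0.0721, 0.0577, 0.0505, 0.0779 and 0.119 by limma, in that order). Without high-fat replicate 1, Col1a1 (0.0683), Col5a2 (0.0597) and Col5a3 (0.107) ended in limma. Without chow replicate 3, Col5a1 passed (limma adjusted p = 0.0429). Their fold changes stayed negative in each of these fits.

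The abundant basement membrane chains Col4a1, Col4a2 and Col15a1 differed less in level than the main fibrillar chains. The ratio of the high-fat to the chow mean was lower for the rarer Col4a5 (0.47), Col4a6 (0.51) and Col4a4 (0.58). Col4a1 had 77.8, 91.2 and 96.9 CPM in high-fat replicates 1, 2 and 3, against 89.6 and 113 CPM in chow replicates 1 and 3. High-fat replicates 2 and 3 lay above chow replicate 1, and the fold change did not pass (-0.18 ± 0.13, limma adjusted p = 0.349). Col4a2, which joins 2 copies of the Col4a1 chain in 1 molecule, had 42.9, 56.7 and 57.5 CPM in high-fat libraries, against 60.4 and 71.6 CPM in chow libraries. The diets did not overlap in Col4a2, and its change of -0.34 ± 0.15 did not pass (limma adjusted p = 0.14). The genes Col4a1 and Col4a2 stand head to head on chromosome 8 and share 22 exonic bases on opposite strands, 0.3% of each. Their ratio per kilobase was 1.77, 1.57 and 1.64 in high-fat libraries, against 1.45 and 1.53 in chow libraries. Col15a1, a basement membrane zone collagen of vessels and muscle, had 15.7, 20 and 20.5 CPM in high-fat libraries, against 20.6 and 22.9 CPM in chow libraries. High-fat replicate 3 and chow replicate 1 differed by less than the spread within either diet, and the change did not pass (-0.21 ± 0.13, limma adjusted p = 0.279).

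The rarer type IV chains, which form the networks of kidney, lung and eye, were at 0.276 to 6.81 CPM. Col4a4 was lower on the high-fat diet, with 2.55, 3.31 and 2.78 CPM in high-fat replicates 1, 2 and 3, against 5.37 and 4.58 CPM in chow replicates 1 and 3 (-0.62 ± 0.16, SE, limma adjusted p = 0.0306). Its head-to-head neighbour Col4a3, with 71 bases between their annotated starts, did not pass (-0.26 ± 0.23, 0.433). It had 2.71, 4.14 and 3.53 CPM in high-fat libraries, against 3.3 and 5.56 CPM in chow libraries, with overlap. The X-linked pair Col4a5 (-0.74 ± 0.29, limma adjusted p = 0.104) and Col4a6 (-0.34 ± 0.18, 0.216) did not pass. Neither did Col18a1, the parent of the fragment endostatin, at 4.31 ± 0.373 CPM in high-fat libraries and 6.49 ± 1.96 CPM in chow libraries (SD, n = 3 and 2; limma adjusted p = 0.109). The Col4a4 call ended without chow replicate 1 (limma adjusted p = 0.143) and without high-fat replicates 1 (0.0836), 2 (0.0543) and 3 (0.0893). Without chow replicate 3, Col4a5 (limma adjusted p = 0.00684) and Col18a1 (0.029) passed.

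In type VI, the classic chains and Col6a6 gave different pictures. Col6a1, an obligate chain of the classic trimer, had 3.96, 5.31 and 7.79 CPM in high-fat replicates 1, 2 and 3, against 18.9 and 10.3 CPM in chow replicates 1 and 3. Col6a3, the longest chain, had 1.98, 2.24 and 3.4 CPM in high-fat libraries, against 7.44 and 4.91 CPM in chow libraries. Both fell without overlap, with log2 fold changes of -1.21 ± 0.30 for Col6a1 and -1.02 ± 0.23 for Col6a3 (SE, limma adjusted p = 0.0305 and 0.0232). Col6a2, the other obligate chain, had 3.12, 5.42 and 8.09 CPM in high-fat libraries, against 15.5 and 8.83 CPM in chow libraries. It did not overlap between the diets and did not pass (-1.03 ± 0.35, limma adjusted p = 0.074). Col6a6 had 80.3, 90 and 118 CPM in high-fat libraries, against 105 and 117 CPM in chow libraries. High-fat replicate 3 was the highest of all 5 libraries, and the fold change did not pass (-0.22 ± 0.16, limma adjusted p = 0.353). Per kilobase, Col6a6 stood at 9.46, 7.91 and 7.08 times Col6a1 in high-fat libraries, against 2.58 and 5.29 times in chow libraries, with no overlap. Col6a5 (-0.24 ± 0.16, limma adjusted p = 0.312) did not pass, and Col6a4 was too low to be tested. The call of Col6a1 ended without chow replicate 1 (limma adjusted p = 0.148) and high-fat replicates 1 (0.0771) and 2 (0.087). That of Col6a3 ended without the same libraries (0.119, 0.0653 and 0.0744 by limma).

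The other types moved in both directions. Col14a1, a fibril-associated collagen of mature connective tissue, had 2.96, 4.18 and 6.04 CPM in high-fat replicates 1, 2 and 3, against 15.3 and 9.65 CPM in chow replicates 1 and 3 (-1.33 ± 0.28, SE, limma adjusted p = 0.0173). Col20a1 had 1.87, 2.32 and 2.4 CPM in high-fat libraries, against 4.58 and 4.67 CPM in chow libraries (-0.82 ± 0.15, limma adjusted p = 0.0113). Both fell without overlap, and Col20a1 was the only 1 of the 13 lower chains whose call held without each of the 5 libraries. Col28a1, known from Schwann cells of peripheral nerve, had 1.28, 1.58 and 1.32 CPM in high-fat libraries, against 2.66 and 3.4 CPM in chow libraries (-0.75 ± 0.16, limma adjusted p = 0.0196). Col8a1, a short-chain collagen of vessel walls, had 1.77, 1.45 and 1.83 CPM in high-fat libraries, against 3.48 and 2.75 CPM in chow libraries (-0.61 ± 0.16, limma adjusted p = 0.0355). Each of these chains was lower in all high-fat libraries than in either chow library.

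The higher calls were Col9a1, Col8a2 and Col26a1, none of them above 5 CPM. Col9a1, a chain of the fibril-associated type IX, had 1.28, 1.79 and 2.35 CPM in high-fat replicates 1, 2 and 3, against 0.145 and 0.168 CPM in chow replicates 1 and 3 (1.26 ± 0.20, SE, limma adjusted p = 0.00631). A floor of 3 reads lay at 0.16 CPM in chow replicate 1, above its level there, and at 0.122 CPM in chow replicate 3, so the size of this fold change depends on the added 1 CPM. Its partner chain Col9a2 went the other way, with 2.58, 2.54 and 2.71 CPM in high-fat libraries, against 4.47 and 4.82 CPM in chow libraries (-0.64 ± 0.14, limma adjusted p = 0.0184). Col9a3 did not pass (-0.12 ± 0.17, limma adjusted p = 0.631).

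The chains of type VIII also moved in opposite directions. Col8a2 had 3.04, 4.85 and 3.92 CPM in high-fat replicates 1, 2 and 3, against 1.86 and 1.85 CPM in chow replicates 1 and 3 (0.77 ± 0.19, SE, limma adjusted p = 0.0279), while Col8a1 was lower. The ratio of Col8a1 to Col8a2 per kilobase was 0.495, 0.254 and 0.395 in high-fat libraries, against 1.58 and 1.26 in chow libraries, with no overlap. Col26a1 had 2.22, 1.97 and 1.26 CPM in high-fat libraries, against 0.798 and 0.534 CPM in chow libraries (0.75 ± 0.20, limma adjusted p = 0.0374). With acinar, insulin and structured RNA genes left out of the library size, Col8a2 (0.60, limma adjusted p = 0.073) and Col26a1 (0.63, 0.0536) no longer passed. That of Col8a2 ended without each library but high-fat replicate 1 (limma adjusted p up to 0.0991), and that of Col26a1 without each but high-fat replicate 3 (up to 0.122). Col9a2 lost its call without any library (limma adjusted p from 0.053 to 0.0626), and Col8a1 without each but chow replicate 3 (up to 0.169). The call of Col14a1 ended when chow replicate 1 (0.0909) or high-fat replicate 2 (0.057) was left out. Col28a1 lost its own without chow replicate 3 (0.0692) and high-fat replicates 1 (0.0576) and 3 (0.0648), all by limma. Without chow replicate 1 Col12a1 passed (limma adjusted p = 0.0181), and without chow replicate 3 Col16a1 did (0.048).

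The remaining chains did not pass. Col12a1 (-0.78 ± 0.24, limma adjusted p = 0.0557) and Col16a1 (-0.44 ± 0.19, 0.132), both fibril-associated, did not overlap between the diets. Col13a1, a transmembrane collagen, was at 6.33 ± 0.519 CPM in high-fat libraries and 6.6 ± 1.21 CPM in chow libraries (SD, n = 3 and 2; limma adjusted p = 0.851). Col7a1, which forms anchoring fibrils beneath epithelia, had 8.77, 1.41 and 3.7 CPM in high-fat replicates 1, 2 and 3, against 15.1 and 5.04 CPM in chow replicates 1 and 3 (-1.04 ± 0.61, limma adjusted p = 0.256). Within each diet its libraries stood in the order of the summed acinar markers. Col23a1 and Col25a1, also transmembrane, had limma adjusted p-values of 0.14 and 0.653. The untested chains were Col2a1, Col6a4, Col10a1, Col17a1, Col19a1, Col22a1 and Col24a1, between 0.0555 and 0.701 CPM in every library.

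None of the tested genes that modify newly made collagen passed as lower in the main fit. List counts of the main fit in this paragraph stand beside 8.78% lower and 14.9% higher of all genes. Of 15 tested genes of collagen hydroxylation and glycosylation, 6 passed as higher and 0 as lower (unadjusted p below 0.05 in 8 and 1, limma), with a median log2 fold change of 0.34. Crtap, a subunit of the prolyl 3-hydroxylation complex, had 59.7, 64.6 and 27.6 CPM in high-fat replicates 1, 2 and 3, against 9.05 and 12.2 CPM in chow replicates 1 and 3 (2.08 ± 0.34, limma adjusted p = 0.00793). The lysyl hydroxylases Plod3 (0.63 ± 0.08, limma adjusted p = 0.00319) and Plod1 (0.50 ± 0.09, 0.012) and the prolyl 4-hydroxylase subunit P4ha2 (0.66 ± 0.14, 0.0185) were higher. With acinar, insulin and structured RNA genes left out of the library size, 1 was higher (Crtap) and 1 lower (the foldase Fkbp10), and the median was 0.11. Of all 16939 genes, 892 were higher and 2357 lower in that scaling, with a median of -0.15. With acinar and insulin genes alone left out, the median of the list was -0.01, a change of sign, beside -0.25 over all genes. In the main fit the median over all genes was 0.05. Of 13 genes of folding and export, 2 passed as higher and 0 as lower (unadjusted p below 0.05 in 3 and 2, limma), Sec13 (0.61 ± 0.08) and Sec24d (0.64 ± 0.11) of the COPII coat. Their median was 0.05, and -0.02 under median-ratio scaling; with acinar, insulin and structured RNA genes left out of the library size, 0 were higher and 2 lower. The collagen chaperone Serpinh1 had 14.4, 15.2 and 19.2 CPM in high-fat libraries, against 16 and 19.2 CPM in chow libraries (-0.11 ± 0.15, limma adjusted p = 0.614). With the acinar score as a covariate, 2 of the 15 hydroxylation and glycosylation genes were higher, beside 1305 of all 16939 genes. Crtap, Plod3, Sec13 and Sec24d kept their calls without each library. Plod1 lost its own without high-fat replicate 2 (limma adjusted p = 0.0529), and P4ha2 without chow replicate 1 and high-fat replicates 1 and 3 (up to 0.0728).

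Genes that assemble and cross-link collagen outside the cell were mostly lower. Of 19 tested, 10 were lower and 1 higher, with a median of -0.94. These counts and those of propeptide processing in the main fit stand beside 8.78% lower and 14.9% higher of all genes. Decorin (Dcn), a small proteoglycan that binds type I fibrils, had 4.39, 2.94 and 6.81 CPM in high-fat replicates 1, 2 and 3, against 60.9 and 21.1 CPM in chow replicates 1 and 3 (-2.75 ± 0.45, SE, limma adjusted p = 0.00725). Fibromodulin (Fmod), of the same family, had 0.217, 0.428 and 1.02 CPM in high-fat libraries, against 5.82 and 3.69 CPM in chow libraries (-1.90 ± 0.27, limma adjusted p = 0.00432). Chow replicate 1 was the higher chow library in both. Asporin (Aspn) was lower as well (-1.01 ± 0.16, limma adjusted p = 0.00624). The cross-linking oxidase Loxl2 was higher, with 42.7, 44.2 and 43.5 CPM in high-fat libraries, against 23.7 and 29.9 CPM in chow libraries (0.69 ± 0.11, limma adjusted p = 0.00669). These 4 calls held without each library, and that of Loxl2 ended with acinar, insulin and structured RNA genes left out of the library size (0.45). The other 7 lower calls ended when a single library was left out, with the highest limma adjusted p at 0.113 for Sparc (lost without any of the 5), 0.161 for Lum and 0.0954 for Prelp (lost without each but chow replicate 3). It was 0.128 for Loxl1 (chow replicate 1, high-fat replicates 1 and 2), 0.0733 for Ogn (each high-fat replicate), 0.0593 for Bgn (chow replicate 1, high-fat replicate 2) and 0.0559 for Fbln1 (high-fat replicates 1 and 2). Under the acinar covariate 5 of the 19 were lower and 1 higher, beside 848 and 1305 of all 16939 genes. With acinar, insulin and structured RNA genes left out of the library size 16 were lower, beside 2357 of all genes. In propeptide processing, 1 of 6 was higher, the proteinase Bmp1 (0.71 ± 0.17, limma adjusted p = 0.0289). Its enhancer Pcolce (-0.68 ± 0.17) and the N-proteinase Adamts2 (-1.01 ± 0.26) were lower (limma adjusted p = 0.0313 and 0.0341). The call of Bmp1 ended without each high-fat library (limma adjusted p up to 0.0892), that of Pcolce without each library but chow replicate 3 (up to 0.156), and that of Adamts2 without chow replicate 1 and high-fat replicates 1 and 2 (up to 0.171). With the acinar score as a covariate 0 of the 6 passed (unadjusted p below 0.05 in 1 higher and 2 lower, limma).

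Genes of collagen sensing, breakdown and control are given, for the main fit, beside the 8.78% lower and 14.9% higher of all genes. Of 12 receptors, 2 were lower, the integrin chain Itga1 (-0.51 ± 0.12) and the kinase Ddr2 (-0.77 ± 0.21), and 0 higher (unadjusted p below 0.05 in 6 lower and 0 higher, limma). Of 15 genes of breakdown, 3 were lower and 0 higher (unadjusted p below 0.05 in 6 and 0, limma). The lower ones were the protease inhibitor Timp2 (-0.92 ± 0.15) and the cathepsins Ctsl (-0.43 ± 0.10) and Ctsk (-0.80 ± 0.19). Ctsk averaged 0.482 CPM in high-fat libraries and 1.62 CPM in chow libraries. It passed the filter on low values only through the chow libraries, so its call lends nothing to the count. Mmp2, a gelatinase, had 1.06, 0.713 and 1.79 CPM in high-fat libraries, against 7.37 and 2.11 CPM in chow libraries, and did not pass (limma adjusted p = 0.0685). Of 24 regulators, 3 were lower and 2 higher. The TGF-beta target Ctgf had 5.86, 6.48 and 8.49 CPM in high-fat libraries, against 13.8 and 14.5 CPM in chow libraries (-0.95 ± 0.16, SE, limma adjusted p = 0.00816). The receptor Tgfbr2 (-0.73 ± 0.16) and the co-activator Wwtr1 (-0.59 ± 0.14) were lower and the inhibitor Smad7 (0.55 ± 0.12) higher. With acinar, insulin and structured RNA genes left out of the library size, 6 receptors, 5 breakdown genes and 6 regulators were lower. Of all 16939 genes, 2357 were lower there. With acinar and insulin genes alone left out, 7, 7 and 11 were lower, in that order, beside 3815 of all genes. In neither scaling was a regulator called higher (unadjusted p below 0.05 in 1, limma), beside 892 and 793 of all genes. With the acinar score as a covariate, 0 receptors (unadjusted p below 0.05 in 3, limma), 1 breakdown gene and 3 regulators were lower, beside 848 of all genes. In that fit 1 regulator was higher, Cebpb (limma adjusted p = 0.0445), beside 1305 of all genes, and Smad7 did not pass (0.0671). Cebpb was the other higher regulator of the main fit, and its call ended without each high-fat library and without chow replicate 3. Timp2 and Ctgf kept their calls without each library. Those of Itga1, Ctsl, Ctsk and Wwtr1 ended without each but chow replicate 3 (limma adjusted p up to 0.13, 0.0802, 0.117 and 0.104), and that of Ddr2 without each but high-fat replicate 3 (up to 0.174). The call of Tgfbr2 ended when chow replicate 1 or high-fat replicate 2 was left out (up to 0.0986), and that of Smad7 when chow replicate 1, high-fat replicate 2 or high-fat replicate 3 was (up to 0.0731).

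**Figure D4:**
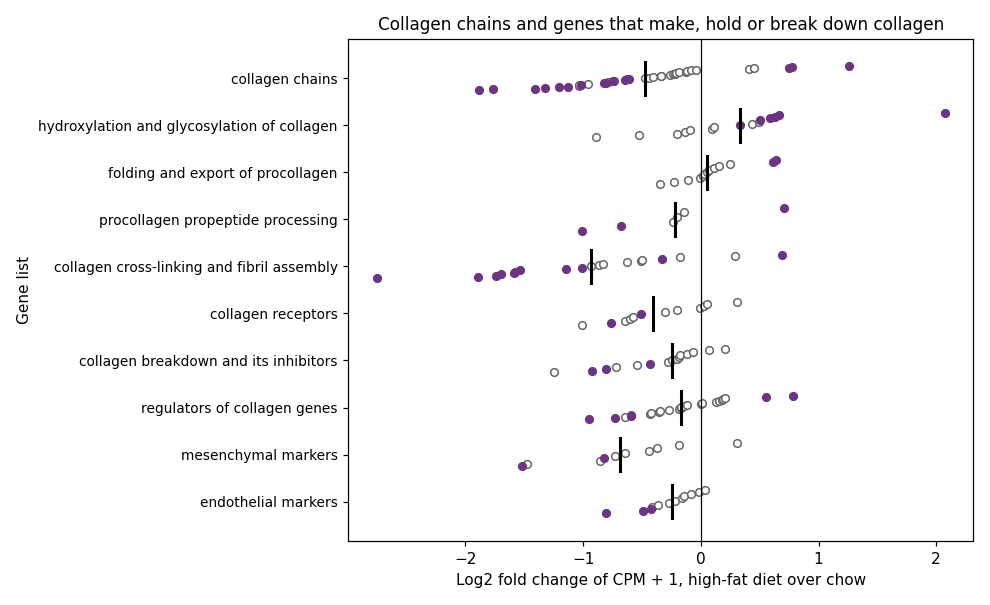
Log2 fold change of CPM + 1 (high-fat diet over chow) of every tested gene in the collagen chains, in 7 lists of genes that act on collagen and in the mesenchymal and endothelial markers; filled points passed an adjusted p of 0.05 and the bar is the list's median. The chains (-0.47) and the assembly genes (-0.94) lie lower than the hydroxylation genes (0.34).

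Summed mesenchymal markers, mostly reads of the pericyte gene Rgs5, were also lower in every high-fat library. The 12 mesenchymal markers summed to 148, 175 and 163 CPM in high-fat replicates 1, 2 and 3, against 206 and 209 CPM in chow replicates 1 and 3. Of the 10 tested, 2 were lower and 0 higher (unadjusted p below 0.05 in 6 and 0, limma), beside 8.78% and 14.9% of all genes. The fold change was negative in 9 of them and positive in 1, Cspg4 (0.31 ± 0.26, limma adjusted p = 0.43). Thy1, a fibroblast surface protein, had 1.79, 2.11 and 2.98 CPM in high-fat libraries, against 10.3 and 6.68 CPM in chow libraries (-1.52 ± 0.23, SE, limma adjusted p = 0.00549). Acta2, the actin of smooth muscle and activated stellate cells, had 4.41, 6.26 and 5.24 CPM in high-fat libraries, against 11 and 9.19 CPM in chow libraries (-0.82 ± 0.16, 0.0153 by limma). That call ended when either chow replicate 1 or high-fat replicate 3 was left out (limma adjusted p up to 0.0801). The pericyte gene Rgs5, the most abundant of the list, had 114, 131 and 118 CPM in high-fat libraries, against 130 and 146 CPM in chow libraries, and did not pass (-0.19 ± 0.10, limma adjusted p = 0.208). In bulk RNA, fewer cells of a type and less RNA per cell cannot be told apart.

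Set against the mesenchymal markers of the same library, summed fibrillar collagen was 0.235, 0.274 and 0.424 in high-fat replicates 1, 2 and 3, against 0.761 and 0.452 in chow replicates 1 and 3. Rgs5 made up 72.1% to 77.3% of those markers in high-fat libraries and 63.2% and 69.8% in chow libraries. Without it, a ratio chosen after seeing the data, the values were 1.03, 1.09 and 1.52 in high-fat replicates 1, 2 and 3, against 2.07 and 1.49 in chow replicates 1 and 3, and the diets overlapped. With the mean log2 level of these markers as a covariate, 0 of the 37 chains passed (unadjusted p below 0.05 in 1 lower and 3 higher, limma), and the whole table held 122 higher and 26 lower genes. The score itself did not overlap between the diets (-0.42, -0.21 and -0.11 in high-fat libraries, against 0.53 and 0.21 in chow libraries), so it and the diet cannot be told apart. With the acinar score as a covariate, 6 chains were lower (Col1a2, Col3a1, Col4a2, Col14a1, Col20a1 and Col28a1) and 1 was higher (Col9a1). Of all 16939 genes, 848 were lower and 1305 higher in that fit.

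Basement membrane collagen stood beside the endothelial markers. Counts of markers called in the main fit in this paragraph stand beside 8.78% lower and 14.9% higher of all genes. The 12 markers summed to 385, 473 and 444 CPM in high-fat replicates 1, 2 and 3, against 486 and 574 CPM in chow replicates 1 and 3. The ratio of summed basement membrane collagen to these markers was 0.385, 0.385 and 0.424 in high-fat libraries, against 0.401 and 0.393 in chow libraries, with overlap. Of the 12, 3 were lower (Tek, Eng and Pecam1) and 0 higher (unadjusted p below 0.05 in 5 and 0, limma), each with a call that ended without chow replicate 1. Those of Eng and Pecam1 also ended without high-fat replicates 1 and 3, that of Eng without chow replicate 3 and that of Pecam1 without high-fat replicate 2 (adjusted p by limma up to 0.0597 for Tek, 0.108 for Eng and 0.188 for Pecam1). Of the other marker lists, 1 macrophage gene of 9 was higher and 1 lower, 1 ductal gene of 8 was higher and 2 lower, and 3 of 12 islet endocrine genes (Mafa, Pdx1 and G6pc2) passed as higher and 0 as lower (unadjusted p below 0.05 in 3 and 0, limma). With library sizes computed without acinar, insulin and structured RNA genes, none passed (0 of the 12; unadjusted p below 0.05 in 0, limma). The calls of Pdx1 and G6pc2 ended without each library but chow replicate 3 (limma adjusted p up to 0.129 and 0.123). None of 16 acinar genes and not the 1 tested mesothelial gene passed (unadjusted p below 0.05 in 1 lower acinar gene and the higher mesothelial Msln, limma). No marker in these lists was at 0 in all 5 libraries.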

How the data were processed

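Total RNA from isolated islets (Trizol extraction, per the labels' protocols) was sequenced. The authors made the deposited table in Partek, as the submitters' processing notes list. Neither a Partek version nor the aligner, build, strandedness or library kit is stated there. Its header names no unit. The lowest value in each column was exactly 1, and the deposited score was read as CPM plus 1, with the 1 subtracted here. The spacing of low values gave the worth of 1 read, and 3 reads lay at 0.0856 to 0.16 CPM, which covers counting error only. Among low values (at most 20 reads), between 64.6% and 70% came out whole within 0.1, so no count model was used. Chow replicate 2, an average of the other chow columns, was left out.

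Diets were compared with limma 3.58.1 (R 4.3.3) on log2(CPM + 1), its prior variance following a trend over expression, for genes averaging 0.5 CPM or more, with p-values adjusted by the Benjamini-Hochberg method. On this scale fold changes understate the change of low genes. Transcript lengths (longest protein-coding transcript), overlaps and coding sequences came from GENCODE M21 and upstream windows from RefSeq, matched by symbol. Both may differ from the authors' annotation. Without known strandedness, reads of overlapping genes cannot be separated; the largest overlaps were 7.7% of the exonic bases of Col9a3 and 3.2% of Col4a3. Every collagen gene was accounted for, with values by library for those with a mean of at least 10 CPM or past the threshold. Of each list, up to 4 called genes with the smallest p were named, and the most abundant markers. Genes named outside this rule were chosen after their values were seen. Members and lists were chosen with earlier results of these data known. The result of 1 marker list is not reported here.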

Additional observations from a re-analysis of the deposited data

How the results depend on the processing

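All alternatives kept the sign of the 16 called chains except the mesenchymal score as a covariate, which turned Col1a2 (0.073), Col3a1 (0.0128), Col5a3 (0.16), Col14a1 (0.0266) and Col6a1 (0.33) on the log2 scale. It did so too for the uncalled Col4a5 (0.21), Col4a6 (0.22), Col15a1 (0.013), Col18a1 (0.24), Col5a1 (0.60), Col11a2 (0.61), Col9a3 (0.39), Col6a2 (0.76), Col6a5 (0.12) and Col6a6 (0.11). Over the fits without 1 library each, uncalled chains that turned ran from -0.32 to 0.16 for Col11a2 and from -0.26 to 0.013 for Col9a3 (positive without chow replicate 1), from -0.57 to 0.0397 for Col4a3 and from -0.21 to 0.12 for Col13a1 (positive without chow replicate 3, Col13a1 also without high-fat replicate 2). The cause was not tested. The 13 lower and 3 higher chains became 1 and 0 with no filter (unadjusted p below 0.05 in 16 and 3, limma). Of the 39352 genes tested there, 573 were lower and 1080 higher. The chains became 6 and 1 under the acinar covariate, beside 848 lower and 1305 higher of all 16939 genes. With the mesenchymal score they became 0 and 0 (unadjusted p below 0.05 in 1 and 3, limma), beside 26 and 122 genes. With acinar, insulin and structured RNA genes left out of the library size they were 19 and 1, beside 2357 and 892 genes. With acinar and insulin genes alone left out, an alternative chosen after seeing the data, they were 21 and 1, beside 3815 and 793. The 1 higher chain under the acinar covariate and in both scalings was Col9a1, which passed the filter only through the high-fat libraries. These scalings moved the median of all genes from 0.05 to -0.15 and -0.25 (log2). Leaving out 1 library gave 2 to 15 lower and 1 to 2 higher chains; a lone chow library was then assumed to vary like the high-fat ones. Median-ratio and upper-quartile scaling, a pseudocount of 0.25, a filter at 1 CPM, no trend in the variance prior and all 6 columns kept both counts within 1.5 times. No alternative turned the sign of a class sum or of the fibrillar to basement membrane ratio. No paired analysis was possible because the labels give no replicate numbers shared by the diets. A level of 3 reads lies between 0.0856 and 0.16 CPM, depending on the library.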
